A study of Mus musculus with 6 samples.

Results

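The nuclear genes of oxidative phosphorylation were examined in RNA sequencing data of the mouse brainstem. Genes were taken by name from the deposited transcript assembly: loci with exactly 1 gene name beginning with *Nduf*, *Uqcr*, *Cox4i*, *Cox5*, *Cox6*, *Cox7*, *Cox8* or *Atp5*, or named *Sdha* to *Sdhd*. Where a name lay on several loci, the locus with the highest mean fragment count was used, which concerned 3 names (*Atp5s*, *Cox6a2* and *Ndufa6*). This gave 88 genes out of 34632 loci: 40 for complex I, 4 for complex II, 8 for complex III, 19 for complex IV and 17 for complex V. *Ndufa4* and *Ndufa4l2* were placed with complex IV, where the NDUFA4 protein is now known to belong. All 88 loci overlapped a gene of the same name, under its current or an older symbol, in both RefSeq and GENCODE annotations of the mm10 genome.

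The libraries came from whole brainstems of mice at postnatal day 21 (P21), and the study asked which genes change after loss of the transcription factor gene *Hoxa5* following birth. Control animals were *Hoxa5* flox/flox;CMV-CreERT2-/-, so they carried both floxed alleles without the recombinase, and cKO animals were *Hoxa5* flox/flox;CMV-CreERT2+/-. Every animal of both genotypes received tamoxifen on P1 to P4, and the cKO animals were compared with their littermates. The CMV promoter drives the inducible Cre broadly and not in one cell type, and each library was made from RNA pooled from 3 brainstems. There were 3 libraries per genotype, so p-values measure the spread between pools. In bulk tissue, fewer cells of a type and less RNA per cell cannot be told apart.

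The locus that holds the targeted gene did not separate the genotypes, and the level of *Hoxa5* alone was not measured. *Hoxa5* lies on a locus that the assembly joined with *Hoxa6* and *2700086A05Rik* (mm10 chr6:52201754-52211868). This locus held 202, 337 and 77 fragments in the control libraries and 279, 57 and 63 in the cKO libraries (log2 fold change -0.62, SE 0.48, edgeR adjusted p = 0.893). At this joined locus control replicate 3 and cKO replicate 1 thus went against their labels, and genotypes are named here as labelled. By RT-qPCR, the study reported that *Hoxa5* transcripts were severely reduced in parts of the brainstem in this model. Libraries held 12034613 to 13202707 fragments. Markers of brainstem neurons summed to 267 to 346 CPM per library, and those of forebrain and skeletal muscle to at most 4.5 and 2.2 CPM. Markers of 2 cerebellar cell types differed with genotype: granule neuron markers summed to 575, 457 and 388 CPM in control against 267, 269 and 247 CPM in cKO, and Purkinje cell markers to 766, 493 and 505 CPM against 259, 321 and 287 CPM. edgeR called 5 of 7 granule neuron and 6 of 6 Purkinje cell markers lower. In these sums every library, control replicate 3 and cKO replicate 1 included, lay on the side of its label. Several of these markers, such as *Gabra6*, *Car8* and *Itpr1*, are genes that the study reported as lower in cKO from these same libraries. The sums are therefore no separate check of the labels. The part of these cells in the levels below was not tested.

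Oxidative phosphorylation is carried out in the inner mitochondrial membrane. Complexes I and II pass electrons from NADH and succinate to ubiquinone, complex III passes them on to cytochrome c, and complex IV to oxygen. Complexes I, III and IV pump protons, and complex V, the ATP synthase, uses the returning protons to make ATP. A few subunits are encoded by the mitochondrial genome, whose loci the deposited table does not hold, and all others are nuclear. Neurons depend heavily on this pathway to power ion pumping and synaptic transmission.

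The promoters of these genes are known for motifs of the factors NRF1, GABP (an ETS factor) and YY1, and for lying head to head with another gene. A promoter window from 250 bases before to 50 bases after the RefSeq start (GRCm38.p6) was found for 73 of the 88 genes. Both strands were searched for the letters CCGGAAG (ETS/GABP), AAGATGGCG (YY1) and a palindrome of 10 letters bound by NRF1, which is the first run of capitals in the *Cox6a1* sequence shown here. The YY1 letters can share their first 3 with the end of CCGGAAG. The NRF1 letters stood in 6 windows (8.22%, against 1.07% of 27025 windows of the same length and 2.09% of the 11013 windows of loci tested here). The ETS/GABP letters stood in 17 windows (23.3%, against 9.93% of all windows and 17.6% of windows of tested loci), and the YY1 letters in 8 (11%, against 1.64% and 3.1%). At least 1 of the 3 was found in 28 windows, or 38.4%, against 21.6% of windows of tested loci. Of the common promoter letters, CCAAT stood in 45.2% of the windows against 42.5% of windows of tested loci, and TATAAA in 9.59% against 8.87%. GGGCGG, the GC box, was found in a smaller share than in windows of tested loci, 45.2% against 67.6%, and in 38.2% of all windows. These letter matches are descriptions and not bound sites. Only 3 windows held a pair of the first 3 motifs, and they are shown in gene orientation because they carry the motif content of the group in its densest form, with the matched letters in capitals:
Cox6a1, mm10 chr5:115348909-115349208, minus strand: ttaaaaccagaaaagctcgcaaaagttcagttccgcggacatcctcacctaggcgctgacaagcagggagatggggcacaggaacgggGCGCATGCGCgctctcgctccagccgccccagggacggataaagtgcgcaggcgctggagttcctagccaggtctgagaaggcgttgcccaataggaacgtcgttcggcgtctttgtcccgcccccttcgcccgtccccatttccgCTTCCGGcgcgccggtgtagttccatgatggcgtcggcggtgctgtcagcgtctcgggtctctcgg
Atp5j, mm10 chr16:84834927-84835226, minus strand: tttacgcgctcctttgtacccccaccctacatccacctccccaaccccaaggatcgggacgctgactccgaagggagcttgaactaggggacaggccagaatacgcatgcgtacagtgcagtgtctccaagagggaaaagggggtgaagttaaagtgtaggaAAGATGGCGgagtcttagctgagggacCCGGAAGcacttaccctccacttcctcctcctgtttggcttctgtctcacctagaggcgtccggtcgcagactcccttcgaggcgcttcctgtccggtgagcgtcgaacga
Atp5k, mm10 chr5:108434350-108434649, minus strand: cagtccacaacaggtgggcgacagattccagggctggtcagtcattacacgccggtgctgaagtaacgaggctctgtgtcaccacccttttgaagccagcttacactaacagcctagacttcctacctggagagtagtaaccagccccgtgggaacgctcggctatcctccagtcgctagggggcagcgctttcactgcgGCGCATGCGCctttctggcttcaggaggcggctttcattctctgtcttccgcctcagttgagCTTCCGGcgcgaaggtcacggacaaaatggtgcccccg
In the *Cox6a1* window the NRF1 letters come first and the ETS/GABP letters follow on the opposite strand, close to the start. The *Atp5k* window has the same order, with the ETS/GABP letters just past the start. The *Atp5j* window holds the YY1 letters and then the ETS/GABP letters, and the locus of *Atp5j* shares exon bases with *Gabpa*, the gene of the DNA-binding GABP subunit, on the other strand.

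A protein-coding gene on the opposite strand started within 1000 bp upstream of the start of 20 of the 88 genes (22.7%), against 1487 of 21938 protein-coding genes in GENCODE (6.78%). The latter share is over all coding genes, expressed here or not, and the share among tested loci was not computed. *Ndufa7* and the ribosomal protein gene *Rps28* start 10 bp apart, *Sdha* and *Ccdc127* 29 bp apart, and *Sdhd* and *Timm8b*, a mitochondrial import gene, 98 bp apart. Of the 16 neighbours that were tested for a difference between genotypes, edgeR called 0. At the share called over all tested loci (0.531%), 0 calls among so few genes says little about them.

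The genes were among the most abundant transcripts of the brainstem. Levels between genes are compared as FPKM, which are per length. By mean FPKM, 73 of the 88 genes reached the top 10% of named tested loci (at least 41 FPKM, with a median over named tested loci of 8.27). *Cox8a*, a small membrane subunit of complex IV, had the highest FPKM, with 571, 559 and 594 FPKM in control and 565, 557 and 534 FPKM in cKO. *Atp5b*, the catalytic beta subunit of the ATP synthase, and *Cox4i1*, a regulatory subunit of complex IV, followed at means of 554 and 549 FPKM. These 3 levels differed from one another by less than the range of any of them over the libraries. *Atp5k* (461 FPKM), *Cox6c* (416 FPKM) and *Ndufa4* (387 FPKM) came next. The order at the top depends on the length used: per kb of the longest assembled transcript, *Atp5b* ranked 1, *Cox4i1* 2, *Cox8a* 3 and *Atp5k* 12.

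The complexes differed in level. The median over genes of the mean FPKM was 87.8 for complex I, 83.2 for complex II, 137 for complex III and 194 for complex V. Complex IV had 2 separate classes: its 11 general subunits had a median of 364 FPKM, while its 7 isoforms and paralogs known from other tissues stayed between 0 and 3.23 FPKM. Within complex I, the 4 assembly factors, which help to build the complex and are not part of it, lay at 8.17 to 19.3 FPKM, against 64.1 to 108 FPKM for the 7 core subunits. The 2 genes named for the synthase that encode no structural subunit, *Atp5s* and *Atp5sl*, had 8.55 and 18.8 FPKM. The lowest subunit of complex I by FPKM, *Ndufa11* with 19.7, did not stand apart from the highest assembly factor, *Ndufaf2* with 19.3 FPKM. *Ndufaf2* exceeded *Ndufa11* in control replicate 1 (21.4 against 20.3 FPKM), control replicate 3 (19.6 against 19.3) and cKO replicate 1 (23 against 20.8). It was lower in control replicate 2, cKO replicate 2 and cKO replicate 3.

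**Figure D1:**
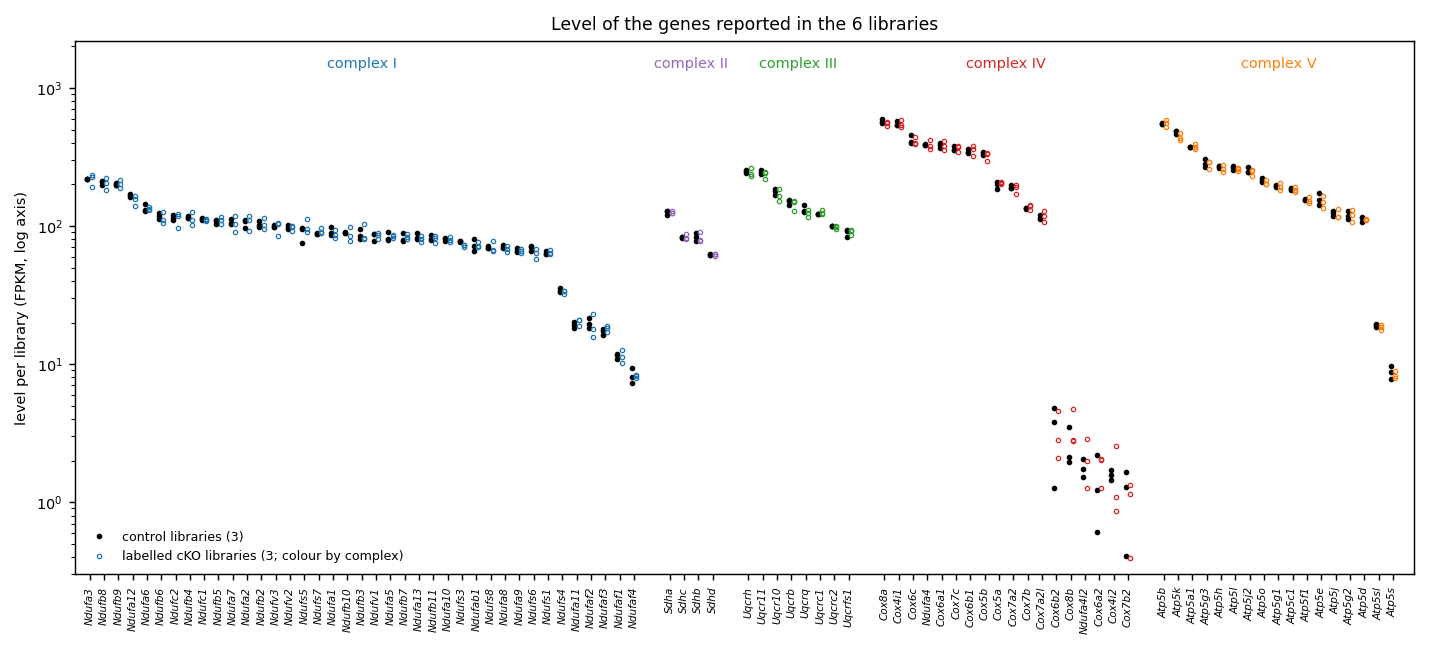
Level of the genes reported here in FPKM on a log axis, with genes ordered by mean level within each complex. Filled points are the 3 control libraries and open points the 3 labelled cKO libraries; *Cox8c*, at 0 in every library, is not drawn. The highest subunits of complexes IV and V reach means of 563 and 554 FPKM, assembly factors of complex I have means of 8.17 to 19.3 FPKM, and 6 complex IV isoforms have means of 3.23 FPKM or less.

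The comparison of the genotypes was made on fragment counts with edgeR's quasi-likelihood test over 21854 loci, with Benjamini-Hochberg adjustment, and 85 of the 88 genes had enough fragments to be tested. None of the 85 was called at an adjusted p under 0.05, where 116 of all tested loci (0.531%) were. At an unadjusted p under 0.05, 0 of the 85 stood out, against 1516 loci (6.94%), and DESeq2 called 0 of the 85 as well. The log2 fold change, labelled cKO over control, had a median of -0.00224 over the genes and of 0.00341 over all tested loci. It was above 0 for 41 genes and below 0 for 44, and its quartiles were -0.03 and 0.03.

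The data were precise enough to bound these differences. For all 79 genes with a mean level of at least 10 FPKM, the 95% interval of the fold change lay within 1.5-fold in either direction. The interval bounds that reached farthest among these 79 genes were -0.29 and 0.42 on the log2 scale. The median SD within a genotype was 0.07 on the log2 CPM scale for the 85 tested genes and 0.14 for all tested loci. Their levels differ as well, with a median of 108 FPKM over the 88 genes and 8.27 FPKM over named tested loci. The SD was not compared at equal level.

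**Figure D2:**
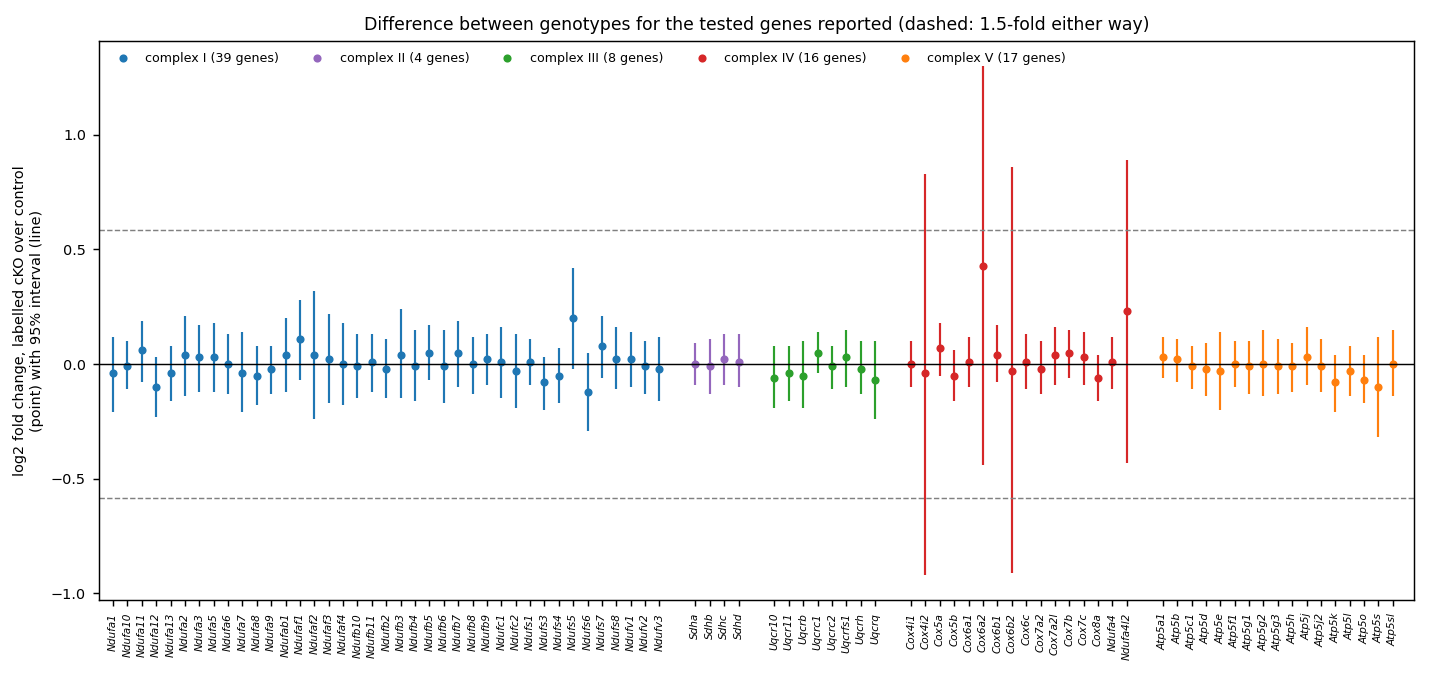
Log2 fold change of the tested genes reported here, labelled cKO over control, with its 95% interval from edgeR, by complex. Points lie close to the zero line, and intervals cross the dashed 1.5-fold lines only for the low genes *Cox4i2*, *Cox6a2*, *Cox6b2* and *Ndufa4l2*.

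In complex I, which oxidises NADH, the median log2 fold change was 0.02 over 7 core subunits, -0.01 over 29 accessory subunits and 0.03 over 4 assembly factors. *Ndufs5*, an accessory subunit on the intermembrane-space side of the membrane arm (mm10 chr4:123712710-123718186), had the smallest p of the 85 genes. Its level was 33.8, 32.6 and 26.0 CPM in control and 32.7, 31.8 and 41.1 CPM in cKO. The genotypes overlapped, with control replicate 3 lowest and cKO replicate 3 highest. The 95% interval of the fold change held 0 (log2 fold change 0.20, SE 0.10, 95% interval -0.02 to 0.42, edgeR adjusted p = 0.791). The log2 fold change was 0.08 without control replicate 3 and 0.07 without cKO replicate 3.

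*Ndufs1*, the large iron-sulfur subunit that receives the electrons, had 174 ± 3.36 CPM in control and 176 ± 8.02 CPM in cKO (mean ± SD, n = 3 each). *Ndufv1*, which binds NADH and flavin, had 129 ± 9.68 and 131 ± 4.55 CPM. Their log2 fold changes were 0.01 and 0.02 with SEs of 0.05 and 0.06, so neither differed by more than the spread between libraries. *Ndufa3*, a small membrane subunit with the highest level in the complex (219 FPKM), had a log2 fold change of 0.03. *Ndufaf4*, an assembly factor with the lowest (8.17 FPKM), had 29.7 CPM in both genotypes, with SDs of 3.59 and 1.28. The lowest log2 fold change of all 85 genes was -0.12, for the accessory subunit *Ndufs6* (SE 0.08, edgeR adjusted p = 0.865), named for that value.

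The CPM of 3 of 85 genes (3.53%) did not overlap between genotypes, against 12.2% of all tested loci. *Ndufs3*, a core subunit of the arm that reduces ubiquinone, had 60.1, 61.3 and 61.7 CPM in control and 57.8, 58.6 and 56.3 CPM in cKO. *Ndufs4*, an accessory subunit whose loss causes a Leigh-like encephalopathy in mice, had 56.1, 53.6 and 53.8 CPM in control and 53.6, 52.8 and 51.6 CPM in cKO, and its closest libraries of different genotype were equal to 3 digits. *Uqcrc1*, a core protein of complex III, had 194, 192 and 196 CPM in control and 204, 202 and 198 CPM in cKO. These differences were small, with log2 fold changes of -0.08, -0.05 and 0.05, and edgeR adjusted p-values of 0.859, 0.933 and 0.9. *Ndufs3* and *Ndufs4* were named because they belong to this count of 3.

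Complex II, the succinate dehydrogenase, also works in the citric acid cycle and is encoded by nuclear genes alone. Its 4 genes showed the narrowest range of differences. Complex II also has the fewest genes of the complexes, and a range tends to widen with their number. *Sdha*, the flavoprotein that oxidises succinate, had 347, 347 and 329 CPM in control and 339, 348 and 339 CPM in cKO. *Sdhb*, the iron-sulfur subunit, had 106, 95.1 and 100 CPM in control and 105, 96.5 and 97.2 CPM in cKO. The membrane anchors *Sdhc* and *Sdhd* had 77 ± 1.34 and 65 ± 0.427 CPM in control and 78.2 ± 3.31 and 65.6 ± 1.79 CPM in cKO. All 4 log2 fold changes lay between -0.01 and 0.02, and none of their 95% intervals passed -0.13 or 0.13.

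In complex III, the cytochrome bc1 complex, the 5 small accessory subunits all lay below 0, with a median log2 fold change of -0.05 (range -0.07 to -0.02), while the 3 core subunits had a median of 0.03. No member of either class was called, and the difference between the classes was not tested. Relative to their own means, the median of the accessory subunits was lowest in cKO replicate 3, at -0.09 on the log2 CPM scale. *Uqcrq* went otherwise, with -0.177 in cKO replicate 1 and -0.003 in cKO replicate 3. Without cKO replicate 3 the median log2 fold change of complex III went from -0.03 to 0.01 and that of *Uqcrh* from -0.02 to 0.01. *Uqcrfs1*, the Rieske iron-sulfur protein, had 86.5, 96.9 and 97.0 CPM in control and 97.3, 98.2 and 90.1 CPM in cKO. *Uqcrh*, the hinge protein that docks cytochrome c and has the highest level in the complex (247 FPKM), had 122 ± 3.34 and 120 ± 7.05 CPM. *Uqcr10*, another small subunit, had 60.6 ± 2.83 and 58.3 ± 4.16 CPM (log2 fold change -0.06, SE 0.06). In every one of these genes the libraries of the genotypes overlapped.

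Complex IV, the cytochrome c oxidase, showed a median log2 fold change of 0.01 over its 11 general subunits (range -0.06 to 0.07). Over all its tested genes the median went from 0.01 to -0.03 without cKO replicate 1. *Cox4i1* had 300, 279 and 282 CPM in control and 302, 286 and 276 CPM in cKO. *Cox5a*, which sits on the matrix side, had 91.3, 99.7 and 101 CPM in control and 98.8, 104 and 103 CPM in cKO, the largest fold change of the class (log2 fold change 0.07, SE 0.05, edgeR adjusted p = 0.899). *Cox8a* had the lowest fold change, with 200, 195 and 210 CPM against 195, 198 and 187 CPM (log2 fold change -0.06, SE 0.05, edgeR adjusted p = 0.896). *Cox6a1*, *Cox7a2* and *Ndufa4* had log2 fold changes of 0.01, -0.02 and 0.01, each with an SE of 0.05. *Cox7a2l*, which joins complexes III and IV into supercomplexes, had 0.04 (SE 0.06).

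The isoforms of complex IV that are known from heart and skeletal muscle, lung, testis or hypoxic cells had few fragments in these libraries. *Cox4i2*, the form known from lung and oxygen sensing, had 13, 11 and 13 fragments in control and 8, 21 and 7 in cKO. *Cox6a2*, the form of heart and skeletal muscle, had 5, 18 and 11 fragments in control and 10, 18 and 18 in cKO. Each had a wide interval, -0.92 to 0.83 and -0.44 to 1.30 on the log2 scale, so a difference of up to about these sizes was not detectable at this depth. *Ndufa4l2*, a hypoxia-induced paralog of *Ndufa4* found in vessel mural cells, had 22, 16 and 20 fragments in control and 13, 23 and 32 in cKO, with a log2 fold change of 0.23 (SE 0.31). The locus of *Ndufa4l2* also shares exon bases with *Shmt2* on the other strand. Markers of mural cells summed to 198 to 218 CPM per library, and 0 of 4 were called.

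Another 3 isoforms did not pass edgeR's filter on low counts. *Cox8b*, the muscle partner of *Cox8a*, had 9, 5 and 6 fragments in control and 7, 8 and 13 in cKO. *Cox7b2* had 2 to 9 fragments per library, and *Cox6b2*, a tested testis form, 6 to 21. *Cox8c*, known from testis, had 0 fragments in each of the 6 libraries. A count of 0 in a single library allows up to 3 fragments from counting error alone, and the 6 libraries together allow fewer per library. Against their general counterparts these isoforms were minor: *Cox4i2* took 0.284% ± 0.0137 of the *Cox4i1* and *Cox4i2* FPKM in control and 0.273% ± 0.168 in cKO, and *Cox6a2* 0.353% ± 0.223 and 0.471% ± 0.145 of the *Cox6a1* and *Cox6a2* FPKM (mean ± SD, n = 3 each). Neither share differed between genotypes by more than its spread (exact two-sided permutation test, p = 1 and p = 0.7).

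The ATP synthase, complex V, had a median log2 fold change of -0.01 over 17 genes, with 5 above and 12 below 0. Without cKO replicate 3 this median was 0.02. *Atp5a1*, the alpha subunit, had 825, 816 and 820 CPM in control and 874, 825 and 809 CPM in cKO. *Atp5b* had 1037, 998 and 1019 CPM in control and 1081, 1030 and 976 CPM in cKO. Both had log2 fold changes near 0 (0.03 and 0.02, SE 0.04 each). The smallest p-values in the complex were those of *Atp5k*, subunit e of the synthase dimer interface, and *Atp5o*, the stalk subunit that confers oligomycin sensitivity. *Atp5k* had 60.6, 61.2 and 58.6 CPM in control and 59.6, 54.1 and 56.5 CPM in cKO (log2 fold change -0.08, SE 0.06, edgeR adjusted p = 0.867). *Atp5o* had 142, 132 and 138 CPM in control and 137, 129 and 127 CPM in cKO (log2 fold change -0.07, SE 0.05, edgeR adjusted p = 0.883). *Atp5s*, a coupling factor, had the lowest level of the complex, and its 14.6 ± 1.42 and 13.6 ± 0.698 CPM overlapped between genotypes.

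The c subunit, which forms the rotating ring of the synthase, is made from 3 genes whose mature proteins are the same and whose import peptides differ. *Atp5g3* took 48.6%, 46.8% and 46.9% of the summed c-subunit FPKM in control and 46.2%, 48.4% and 47.3% in cKO. *Atp5g1* took 30.9%, 33.5% and 33.3% in control and 32.8%, 31.7% and 33.3% in cKO. *Atp5g2* took 20.5%, 19.7% and 19.7% in control and 20.9%, 19.9% and 19.4% in cKO. The order of the 3 genes was the same in every library, and no share differed between genotypes beyond its spread. Exact two-sided permutation tests gave p = 0.9, p = 1 and p = 0.8, and all 5 shares tested in complexes IV and V had a Benjamini-Hochberg adjusted p of 1. With 3 libraries against 3 this test cannot give a p under 0.1. The shares depend on the transcript length used: with fragments per kb of the longest assembled transcript, they were 50%, 45.4% and 4.67%.

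**Figure D3:**
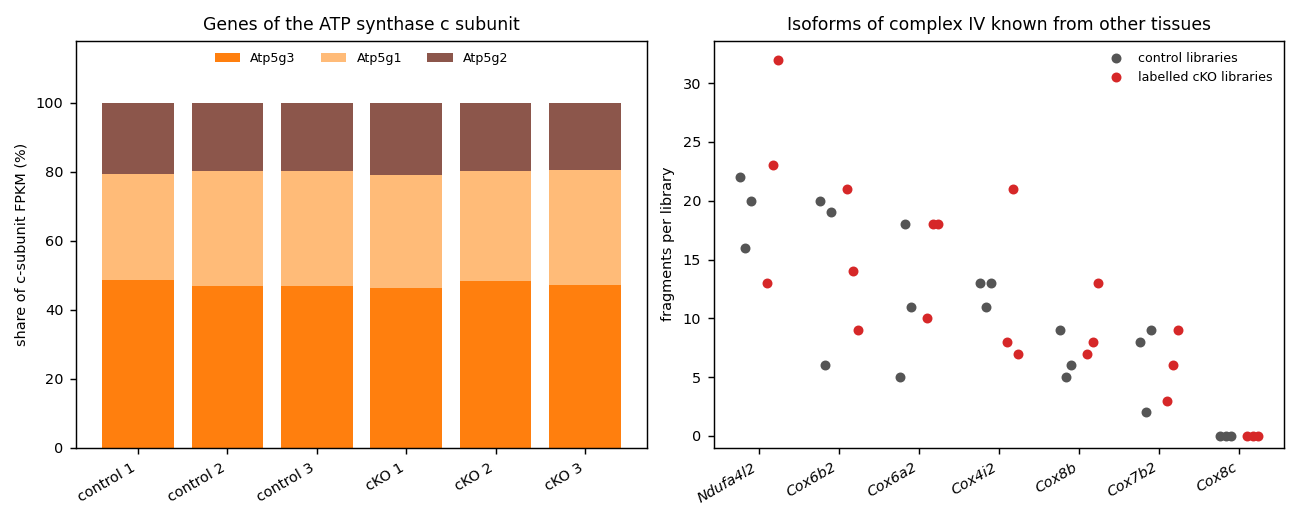
Left, share of the summed c-subunit FPKM taken by each of the 3 genes in each library, in percent. Right, fragments per library of the 7 isoforms and paralogs of complex IV, with 1 point per library in grey for control and red for labelled cKO. The share of each c-subunit gene varies by under 3 percentage points over the 6 libraries, and no isoform exceeds 32 fragments.

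The summed level varied more within the cKO genotype than between the genotypes. The 88 genes took 0.886%, 0.868% and 0.887% of all fragments in the control libraries and 0.913%, 0.883% and 0.842% in the cKO libraries, which is 0.88% ± 0.0108 and 0.879% ± 0.0359 (mean ± SD, n = 3 each). The highest and the lowest library were thus both cKO. Relative to each gene's own mean over the 6 libraries, the median log2 CPM was 0.05 in cKO replicate 1 and -0.06 in cKO replicate 3, and between -0.03 and 0.02 in the other 4 libraries. In cKO replicate 1, 71 of 85 genes lay above their own mean and 35 had their highest value, while in cKO replicate 3 only 12 lay above it and 48 had their lowest value. Over all tested loci, 50.1% to 51.7% lay above their mean in each library. The shift ran through all 5 complexes, with medians from 0.05 to 0.06 in cKO replicate 1 and from -0.08 to -0.04 in cKO replicate 3.

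A like library pattern was present in other short transcripts. The longest assembled transcript of the 88 genes had a median of 765 nt, against 3734 nt for named tested loci. Among 145 other named loci under 600 nt, the median deviation was 0.08 in cKO replicate 1 and -0.08 in cKO replicate 3, and among 6490 loci of 4000 nt and over it was -0.01 and 0.00. Genes of oxidative phosphorylation under 600 nt had 0.05 and -0.08, and those from 1000 to under 2000 nt had 0.05 and -0.05, against 0.06 and -0.05 for other loci of that length. In longer transcripts the shift was smaller for other loci, with 0.03 and -0.03 from 2000 to under 4000 nt. For these genes it was smaller than under 600 nt in cKO replicate 3 alone. The 11 genes from 2000 to under 4000 nt had 0.05 and -0.04. The 3 genes of 4000 nt and over had 0.05 and -0.05, but also 0.05 in control replicate 1. Markers of some glia were also highest or lowest in these libraries. Oligodendrocyte markers had 25364 CPM summed in cKO replicate 1 and 21036 CPM in cKO replicate 3, against 22695 to 23372 CPM in the other 4 libraries. Microglia markers had 125 and 108 CPM, against 111 to 116 CPM elsewhere, and astrocyte markers were highest in cKO replicate 1 with 1100 CPM but lowest in cKO replicate 2 with 925 CPM. Other lists were instead high in both cKO replicates 1 and 3. Brainstem neuron markers had 336 and 346 CPM, against 267 to 317 CPM elsewhere. Choroid plexus markers had 626 and 638 CPM, against 386 to 534 CPM elsewhere. The part of transcript length or of these cells in these levels was not tested.

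**Figure D4:**
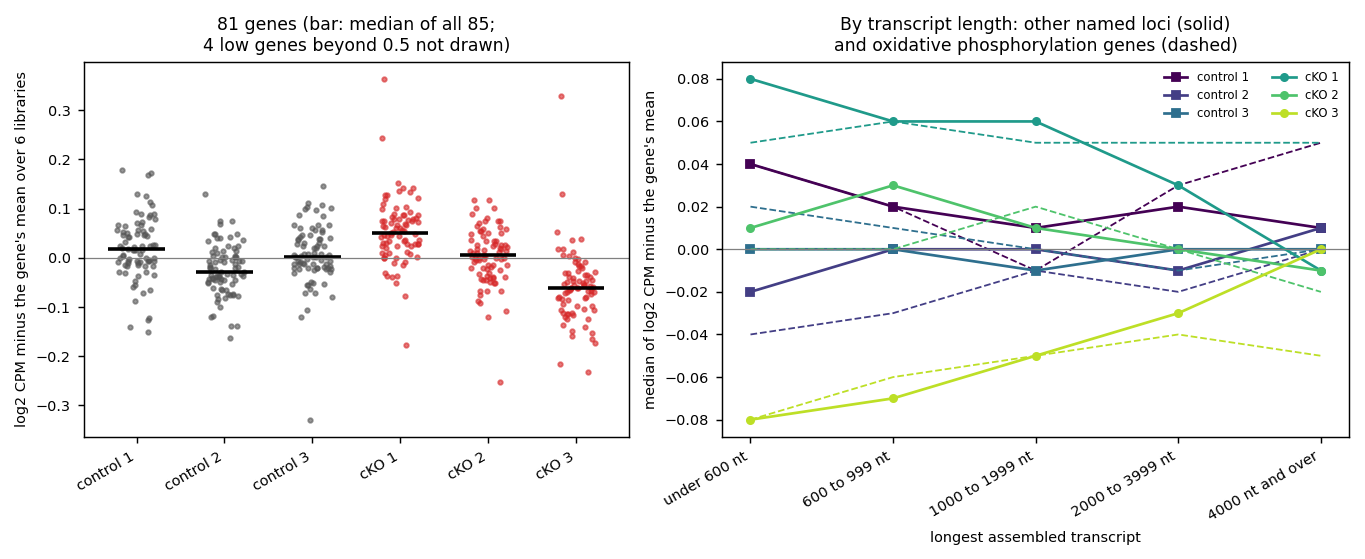
Left, log2 CPM of each gene minus its mean over the 6 libraries, with bars for the median of the 85 tested genes. Right, the same median by length of the longest assembled transcript, for other named loci (solid) and the genes of oxidative phosphorylation (dashed), with 1 colour per library. cKO replicate 1 lies highest and cKO replicate 3 lowest for short transcripts. At 4000 nt and over the libraries converge for other loci. The 3 genes of oxidative phosphorylation there have 0.05 in both cKO replicate 1 and control replicate 1, and -0.05 in cKO replicate 3.

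Genes that work with the complexes were read from 4 lists. None of 18 partners (cytochrome c, cytochrome c1, carriers, channels and ubiquinone synthesis), 34 further assembly factors, 17 regulators of mitochondrial gene expression and 13 citric acid cycle enzymes was called or reached an unadjusted p under 0.05 with edgeR. The median log2 fold changes were -0.02, 0.01, -0.02 and 0.02. *Ppargc1a*, the coactivator that drives mitochondrial biogenesis, had the smallest p of the 4 lists, with 67.9 ± 5.17 CPM in control and 74.9 ± 7.48 CPM in cKO (log2 fold change 0.14, SE 0.07, edgeR adjusted p = 0.773). *Polg*, the mitochondrial DNA polymerase, had 69.9 ± 2.39 and 66.1 ± 0.464 CPM (edgeR adjusted p = 0.86). Among the partners, the outer membrane channel *Vdac1* had 279 ± 5.54 and 293 ± 10.7 CPM, and *Pdss1*, of ubiquinone side-chain synthesis, 35.7 ± 2.82 and 33 ± 0.604 CPM (edgeR adjusted p = 0.856 and 0.859). Among the cycle enzymes, *Sucla2*, a subunit of succinyl-CoA synthetase, had 158 ± 2.21 and 166 ± 6.67 CPM, and *Dlst*, of the oxoglutarate dehydrogenase complex, 123 ± 5.09 and 117 ± 4.52 CPM (edgeR adjusted p = 0.849 and 0.899). The factors behind the promoter letters above, *Nrf1*, *Gabpa* and *Yy1*, had log2 fold changes of -0.07 (SE 0.08), 0.03 (SE 0.07) and -0.06 (SE 0.06).

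Of the 88 genes, 24 share exon bases with another annotated gene, 3 of them (*Ndufb2*, *Ndufb8* and *Ndufb9*) on the same strand. The libraries were stranded, but the strand setting of the counting is not given in the sources used here, so reads of such pairs, among them *Cox4i1* with *Emc8* and *Atp5a1* with *Haus1*, may be shared. Many of these genes also have processed copies elsewhere in the genome, between which the counting could split reads.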

How the data were processed

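RNA of 6 pools of P21 brainstem, 3 control and 3 cKO, was sequenced after ribosomal RNA depletion with a stranded kit. The authors called bases with CASAVA 1.6, aligned reads to mm10 with TopHat2 2.0.9, assembled transcripts with Cufflinks 2.2.0 and quantified loci with Cuffdiff. The deposited table gives whole fragment counts and, as the authors scaled them, FPKM for 34632 loci in each library. Its 2 columns of scaled fragments were not used. Replicate numbers, counted here from 1, are names within a genotype.

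Fragment counts were normalized by TMM, filtered with filterByExpr and compared with edgeR 4.0.16 (R 4.3.3) by its quasi-likelihood test, called at a Benjamini-Hochberg adjusted p under 0.05. CPM used TMM library sizes, and log2 values had 2 counts added as a prior. The common coefficient of biological variation was 0.0552. The alternatives were DESeq2 1.42.0, library size alone, upper-quartile factors, no filter, at least 50 fragments in 3 libraries, limma 3.58.1 on log2(FPKM + 1) and log2(FPKM + 0.1) where FPKM reached 1 in 3 libraries, each library left out, control replicate 3 and cKO replicate 1 left out together, and the replicate number as a block. Scripts were tested on simulated data. Exact permutation tests of the isoform shares were run with scipy 1.17.1.

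The members, gene lists and alternatives were chosen with earlier results of these data known. The text names, per complex, the 2 genes with the smallest p, those of highest and lowest level, 10 core subunits and the isoforms, and the 2 smallest p-values per list of partners, regulators and cycle enzymes, and *Hoxa5* as the target. Other names were chosen from their values, and a gene that the rule takes in is not reported here. The *Cox7a1* locus joins *Gm5113*, so *Cox7a1* is no member and its share was not computed.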

Additional observations from a re-analysis of the deposited data

How the results depend on the processing

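None of the tested genes of oxidative phosphorylation was called under any of the 15 alternatives, and their lowest adjusted p was 0.475, without cKO replicate 1. At an unadjusted p under 0.05 stood *Ndufs5* (no filter, and without control replicate 1, cKO replicate 1 or cKO replicate 2) and *Ndufs3* (both limma fits), among the genes reported here. The log2 fold change of *Ndufs5*, 0.20, fell to 0.08 and 0.07 without control replicate 3 or cKO replicate 3. Their median log2 fold change ran from -0.03 without cKO replicate 1, with 21 of 85 genes above 0, to 0.03 without cKO replicate 3, with 64 above 0. Of 462 values of named genes under an alternative, 71 had the other sign, and of 75 medians of complexes 0 moved by over 1 SD, although the median of each of the 5 complexes crossed 0 under at least 1 left-out library. The number of all loci called moved more: 221 without a filter, 76 with at least 50 fragments in 3 libraries, 0 with limma on log2(FPKM + 1), where 1298 had an unadjusted p under 0.05, and 1 on log2(FPKM + 0.1). With 1 library left out it was 44 (without control replicate 1) to 126 (without control replicate 3), with 65 without cKO replicate 3. The genotype left with 2 libraries is then assumed to vary like the other. With control replicate 3 and cKO replicate 1 both left out it was 161. After the mean of its genotype was taken from each locus, the log2 CPM of same-numbered libraries correlated at 0.0316, -0.0821 and 0.0504. These values gave no sign that the numbers pair the libraries. With the number as a block, 130 loci and 0 of the genes were called. With fragments per kb of the longest transcript, the shares of *Atp5g1*, *Atp5g2* and *Atp5g3* were 45.4%, 4.67% and 50%, and the order of the 88 genes by level had a Spearman correlation of 0.94 with that by FPKM, across genes that are not independent. Depth limits the complex IV isoforms, with at most 32 fragments per library, and the planned share of *Cox7a1* was not run.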

Other observations

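Genes of other mitochondrial and protein-making complexes also held 0 calls with edgeR. The 73 tested genes of mitochondrial ribosomal proteins had a median log2 fold change of 0.00846 and the 72 of cytosolic ribosomal proteins of 0.00322. Their median deviations in cKO replicates 1 and 3 were 0.03 and -0.04 for the mitochondrial and 0.09 and -0.08 for the cytosolic ribosomal proteins, on the log2 CPM scale. The locus that joins *Cox7a1*, the heart and muscle partner of *Cox7a2*, with *Gm5113* held 419, 389 and 424 fragments in control and 399, 404 and 399 in cKO, which cannot be split between both genes. Among 34 assembly factors outside the *Nduf* names, *Atpaf2* and *Tmem70*, which help to build the ATP synthase, had the smallest p-values. *Atpaf2* had 19.4 ± 0.347 CPM in control and 21.6 ± 1.61 CPM in cKO (log2 fold change 0.16, SE 0.09, edgeR adjusted p = 0.791), and *Tmem70* 22.6 ± 1.56 and 20.3 ± 0.617 CPM (log2 fold change -0.15, SE 0.08, edgeR adjusted p = 0.794).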
